A study of Mus musculus with 2 samples.

Results

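The miR-26 family of the mouse consists of 3 miRNA genes, Mir26b, Mir26a-1 and Mir26a-2, and their levels were followed in the hippocampus of young mice. The genes were chosen by name, by matching the gene identifiers of the count tables to the GENCODE M21 annotation, and they are 3 of the 2202 miRNA genes counted. All 3 had counts in both libraries, and all 3 passed the minimum of 10 counts that was set for a test. The tissue came from male B6CASTF1/J mice aged 14 days, the F1 hybrid of the strains C57BL/6J and CAST/EiJ, with no treatment named in the labels. The series held 1 group of 2 biological replicates, for each of which the labels name 3 males, and small RNA was sequenced from total RNA. The donor identifier is the same in both labels and pooling is not described, so part of the spread between these libraries may be technical.

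A miRNA gene gives a hairpin that is cut to a duplex, and one strand of the duplex guides the silencing complex to messages that pair with its seed, bases 2 to 8. The miR-26 genes lie inside genes of the small CTD phosphatases, which remove phosphate from the tail of RNA polymerase II. REST recruits these phosphatases to keep neuronal genes silent outside neurons, and in zebrafish miR-26b represses its host family member ctdsp2 during neurogenesis. In rodent neurons miR-26a is known for effects on dendritic spines.

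The hairpins are shown first, since what a count can tell about each gene depends on which of its bases are its own. RefSeq held all 3 hairpins on GRCm38.p6, and each was identical to the GENCODE sequence at the same position. Capitals mark the 5p arm and then the 3p arm.
Mir26b hairpin: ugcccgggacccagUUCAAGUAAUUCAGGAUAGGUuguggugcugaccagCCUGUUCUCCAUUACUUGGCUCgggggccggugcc
Mir26a-1 hairpin: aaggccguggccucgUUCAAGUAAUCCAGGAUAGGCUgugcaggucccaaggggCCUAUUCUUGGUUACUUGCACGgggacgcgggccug
Mir26a-2 hairpin: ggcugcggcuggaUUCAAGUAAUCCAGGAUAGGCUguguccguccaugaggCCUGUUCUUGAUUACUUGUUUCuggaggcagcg

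Mir26b (ENSMUSG00000065468.1) lies at chr1:74394310-74394394, Mir26a-1 (ENSMUSG00000065513.1) at chr9:119031796-119031885 and Mir26a-2 (ENSMUSG00000065430.1) at chr10:126995530-126995613. All are on the plus strand of mm10. The hairpins are 85, 90 and 84 nucleotides long in that order, so levels of the genes are compared without a correction for length.

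The mature arms show where the family is identical and where it differs, and capitals here mark the seed.
miR-26b-5p: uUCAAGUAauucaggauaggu
miR-26a-5p: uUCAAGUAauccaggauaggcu
miR-26b-3p: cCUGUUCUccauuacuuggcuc
miR-26a-1-3p: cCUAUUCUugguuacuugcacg
miR-26a-2-3p: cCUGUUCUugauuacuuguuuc

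All 3 genes give a 5p arm with the seed UCAAGUA, and no other mature sequence among the 1738 entries of the RefSeq table has that seed. The 5p arm of both Mir26a copies is the same 22 bases. Over the 21 bases that can be compared, miR-26b-5p and miR-26a-5p are identical at 19 and differ by U11C and U21C. In these terms the first base is that of miR-26b-5p, the second that of miR-26a-5p, and positions count from 1 at the 5′ end. Neither substitution is in the seed.

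The 3p arms divide the family differently. The arms of Mir26b and Mir26a-2 share the seed CUGUUCU and 18 of 22 bases, while the arm of Mir26a-1 has the seed CUAUUCU, by G4A against miR-26b-3p. The CUGUUCU seed also occurs in miR-6932-3p and miR-7039-3p, and the CUAUUCU seed in no other entry. The 3p arms of the Mir26a copies are identical at 16 of 22 bases, and none of the 3p arms was found whole in another annotated hairpin.

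The hosts place the 3 hairpins at the same point of 3 paralogous genes. Mir26b is in intron 4 of Ctdsp1 (ENSMUSG00000026176.13), Mir26a-1 in intron 5 of Ctdspl (ENSMUSG00000047409.13) and Mir26a-2 in intron 5 of Ctdsp2 (ENSMUSG00000078429.9), counted in the principal transcript of each host. Each encodes a small CTD phosphatase. In all 3 hosts the intron follows an exon of 57 nucleotides and precedes one of 93 nucleotides, and 3 coding exons remain after it. The coding bases before the intron number 378 in Ctdsp1, 426 in Ctdspl and 408 in Ctdsp2, whole codons in each case.

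The introns differ in size. They are 564 nucleotides long for Mir26b, 3283 for Mir26a-1 and 1946 for Mir26a-2. The hairpin starts 234, 1543 and 1621 nucleotides after the upstream exon in that order. The distance to the next exon is nearly equal for Mir26b and Mir26a-2, at 245 and 241 nucleotides, and is 1650 nucleotides for Mir26a-1. The hosts span 5.78 kb for Ctdsp1, 117.5 kb for Ctdspl and 21.3 kb for Ctdsp2.

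**Figure D1:**
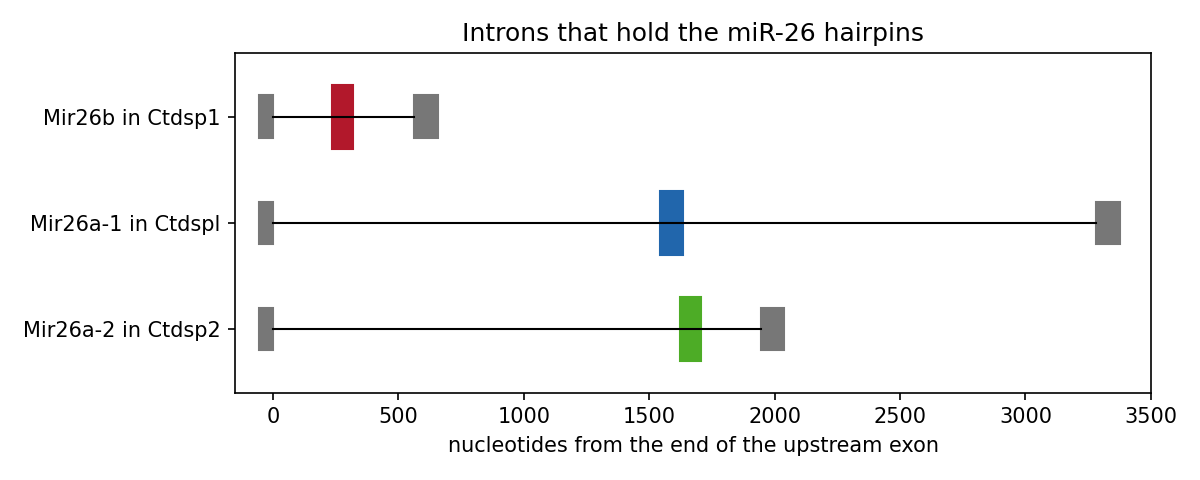
Introns of the small CTD phosphatase genes that hold the miR-26 hairpins, to scale, in nucleotides from the end of the upstream exon (x axis). Grey boxes are the flanking exons of 57 and 93 nucleotides and coloured boxes the hairpins, and the intron of Ctdsp1 is the shortest at 564 nucleotides.

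Depth was 3793934 counts on miRNA genes from 13791106 reads in replicate 1, and 2554997 from 7239133 reads in replicate 2. Levels are counts per 1000000 of these counts (CPM), so that a single count was worth 0.264 CPM in replicate 1 and 0.391 CPM in replicate 2. Reads that mapped to several places were given to no gene. They made up 26.3% of reads in replicate 1 and 37.5% in replicate 2, and unmapped reads made up 41.3% and 20.7%. As a check of the tissue, 8 of 12 listed neuron miRNA genes reached 2 CPM in both libraries, beside 426 of all 2202 genes (19.3%). The list summed to 33458 CPM in replicate 1 and 25886 CPM in replicate 2, of which Mir132 alone gave 17266 and 5947 CPM. All 3 Mir124a genes, of the main neuronal miRNA, were at or below 3.16 CPM, and each has sequence that recurs in another miRNA gene. Of 5 muscle and heart genes 4 were at 0 in both libraries, and these 4 have recurring sequence too. The remaining gene, Mir206, has no recurring stretch of 20 nucleotides. It had 27.4 CPM in replicate 1 and 35.6 CPM in replicate 2. The liver gene Mir122 had 20.6 CPM in replicate 1 and 29.7 CPM in replicate 2.

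Mir26b held nearly all counts of the family. It had 13150 counts in replicate 1 and 17724 in replicate 2, which are 3466 CPM (95% Wilson interval 3407 to 3526) and 6937 CPM (6836 to 7040). Its mean of 5202 ± 2454 CPM (SD, n = 2) placed it at rank 38 of 2202 miRNA genes, with rank 50 in replicate 1 and rank 31 in replicate 2. Among the 781 miRNA genes in introns of a protein-coding host on the same strand it was at rank 12. Such intervals cover counting error only and leave out variation between libraries. PCR copies of a molecule were not told apart, so the intervals may be too narrow even for counting error. In bulk tissue, fewer cells of a type and less RNA per cell cannot be told apart.

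Mir26a-1 and Mir26a-2 stood far below Mir26b in both libraries. Mir26a-1 had 450 counts in replicate 1 and 50 in replicate 2, or 119 CPM (95% Wilson limits 108 and 130.1) and 19.6 CPM (limits 14.8 and 25.8). Mir26a-2 had 151 counts in replicate 1 and 52 in replicate 2, or 39.8 CPM (33.9 to 46.7) and 20.4 CPM (15.5 to 26.7). The lowest value of Mir26b lay above the highest value of either copy, while the range of Mir26a-1 covered that of Mir26a-2. The copies thus cannot be ordered beyond their spread, with means of 69.1 ± 70.03 CPM for Mir26a-1 and 30.1 ± 13.8 CPM for Mir26a-2 (SD, n = 2 each). They ranked 223 and 258 of 2202 by mean CPM, with 88.3% of all genes at or below the level of Mir26a-2.

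**Figure D2:**
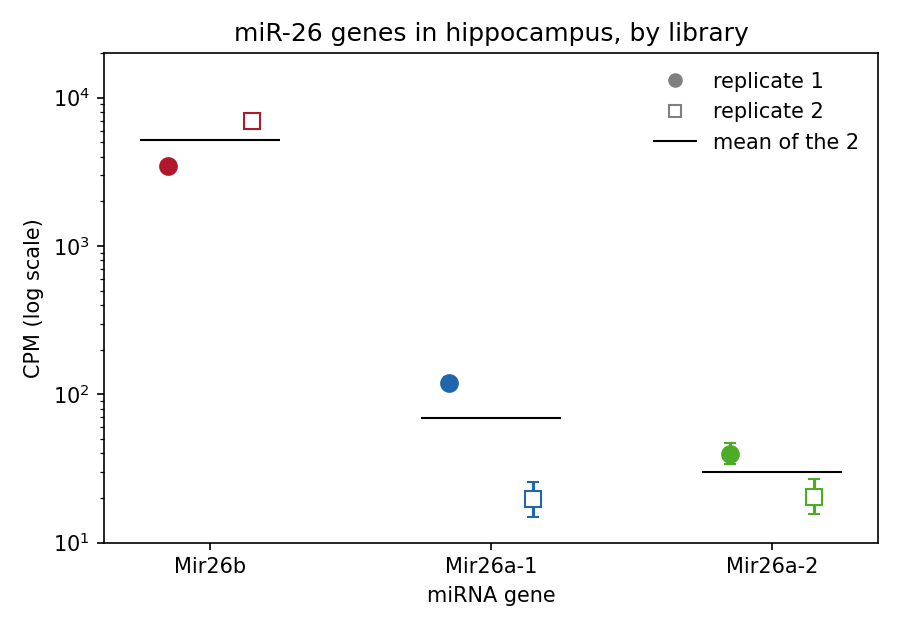
CPM on a log axis of each miR-26 gene in replicate 1 (filled circles) and replicate 2 (open squares), with 95% Wilson intervals for counting error and a line at the mean of the 2 libraries. Mir26b is at 3466 and 6937 CPM, and no value of a Mir26a copy exceeds 119 CPM.

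The 3 genes together held 0.362% of the counts of replicate 1, with a 95% Wilson interval of 0.356 to 0.369, and 0.698% of those of replicate 2, with an interval of 0.688 to 0.708, for a mean of 0.530% ± 0.237 (SD, n = 2). Mir26b made up 95.6% of the family's counts in replicate 1 (exact 95% binomial interval 95.3 to 95.97) and 99.4% in replicate 2 (99.3 to 99.5). Its counts were 21.9 times those of both Mir26a copies summed in replicate 1 (20.2 to 23.8) and 174 times in replicate 2 (143 to 213). The size of this ratio thus depended on the library, and its direction did not.

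The contrast of Mir26b with the Mir26a copies is one of assigned counts, and the genes differ in how many reads can be assigned to them. No stretch of 18 nucleotides of the Mir26b hairpin occurs in another annotated miRNA gene on either strand, and the longest stretch it shares with any is 12 nucleotides. The Mir26a copies share 25 nucleotides with each other, made of the whole 5p arm and the 3 bases after it, shown here in full.
Stretch shared by Mir26a-1 and Mir26a-2: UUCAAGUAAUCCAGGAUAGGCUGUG
A read of up to 25 nucleotides within this stretch matches both copies equally. Of the windows of 22 nucleotides in each hairpin, the length of the mature arm, 4 of 69 in Mir26a-1 and 4 of 63 in Mir26a-2 are found in the other copy. From 26 nucleotides on no window is shared. The size range stated in the labels is under 30.

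**Figure D3:**
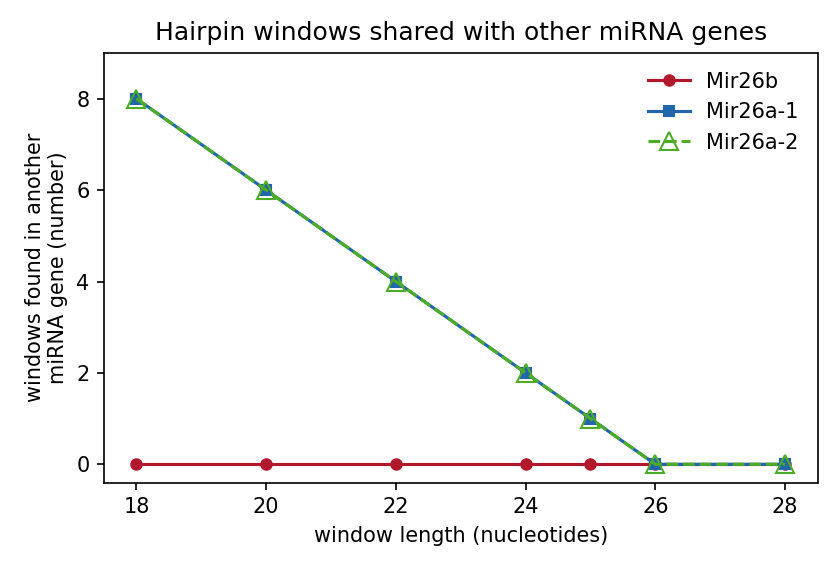
Number of windows of each miR-26 hairpin that are found in another annotated miRNA gene (y axis) against window length in nucleotides (x axis). The curves of both Mir26a copies coincide and reach 0 at 26 nucleotides, and Mir26b is at 0 at every length from 18 to 28.

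Reads of the shared 5p arm would fall among the multimapping reads if no base outside the stretch was read. The tables do not say how many of these reads came from miR-26a. Multimapping reads numbered 264 times the family's assigned counts in replicate 1 and 152 times in replicate 2, so that the level of miR-26a-5p cannot be read from the counts of its genes. The counts of the Mir26a copies are reported as uncertain for this reason, and the arms of a hairpin were not counted apart.

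Recurring sequence is common among the genes counted. At 20 nucleotides, 49.4% of the 2202 genes share a stretch with a non-overlapping miRNA gene. Of these 1087 genes, 7.82% were detected at 2 CPM or more in both libraries, and they held 10.1% of counts, with a median of 0 CPM. Of the other 1115 genes, 30.6% were detected, and they held 89.9% of counts, with a median of 0.264 CPM. Over detected genes alone, the medians were 94.6 CPM with a recurring stretch and 86.0 CPM without. No arm sequence was found in RefSeq for 1180 of the 2202 genes, of which 3.73% were detected, with a median of 0 CPM. Arm sequences were found in RefSeq for 1022 genes. Of these, 910 have no arm that recurs in another annotated hairpin, like Mir26b, 61 have an arm that recurs and another that does not, like the Mir26a copies, and 51 have arms that all recur.

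Genes with no recurring arm had a median of 0.791 CPM, with 335 of 910 detected. The 61 genes with both kinds of arm had a median of 24.9 CPM, with 40 detected. Of the 51 genes whose arms all recur 7 were detected, and the median of the 51 was 0. These medians include undetected genes. Over detected genes alone, the medians were 104.8 CPM with no recurring arm, 76.6 CPM with both kinds and 261 CPM where all recur. Both Mir26a copies lay below the 76.6 CPM of their class. Mir26a-1 and Mir26a-2 were at ranks 21 and 28 of the 61. The top of that class was held by Mir128-1 and Mir138-1, neuronal miRNA genes at 5824 ± 2065 and 4260 ± 1173 CPM (SD, n = 2 each). How far a recurring arm lowered the assigned counts of a gene was not tested.

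**Figure D4:**
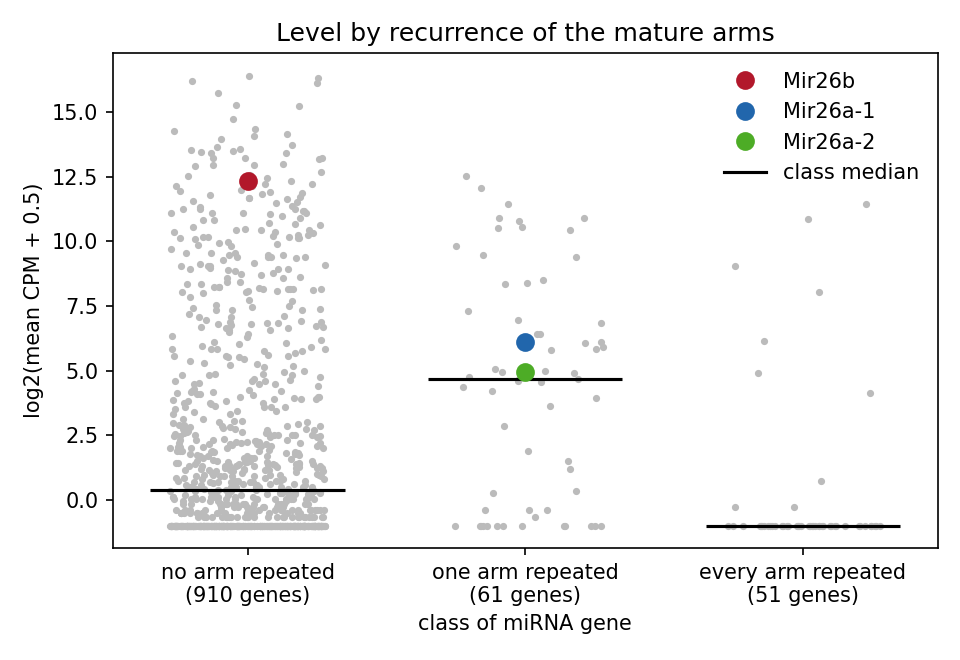
log2(mean CPM + 0.5) of miRNA genes (grey points, y axis) by class, according to whether none, one or all of a gene's mature arms recur in another annotated hairpin, with a line at each class median. Mir26b stands near the top of the 910 genes with no recurring arm, and Mir26a-1 at 69.1 CPM and Mir26a-2 at 30.1 CPM lie above the median of the 61 genes with both kinds of arm, 24.9 CPM.

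The miR-26 genes were set beside 7 genes of other families that sit in introns of paralogous hosts. The genes in Pank hosts, which encode pantothenate kinases, gave a similar picture. Mir107 in Pank1 had 2534 CPM in replicate 1 and 802 CPM in replicate 2. Mir103-2 in Pank2 had 29.5 and 20.4 CPM, and Mir103-1 in Pank3 had 11.1 and 2.35 CPM. As with Mir26b and the Mir26a copies, the gene whose arms do not recur whole was the highest and the copies with a common arm were low. Mir107 does share a stretch of 20 nucleotides with another miRNA gene, which Mir26b does not. The other pairs of the list did not all look like this. Mir128-1 in R3hdm1 and Mir128-2 in Arpp21 share their 3p arm and were at 5824 ± 2065 and 1902 ± 596 CPM (SD, n = 2 each). The Slit genes held Mir218-2 at 124 ± 27.4 CPM and Mir218-1 at 20.1 ± 0.413 CPM (SD, n = 2 each).

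Of 8 genes for neural miRNAs tied to REST and the small CTD phosphatases, 4 reached 2 CPM in both libraries, beside 19.3% of all 2202 genes. Values of the 8 ran from 0 to 17266 CPM. Mir132, which is induced by neuronal activity, was highest at 17266 CPM in replicate 1 and 5947 CPM in replicate 2, followed by Mir212 of the same transcript at 491 and 471 CPM. The lowest were Mir124a-3 with 0 and 4 counts and Mir124a-2 with 5 and 1 counts. miR-124 is known to repress Ctdsp1, the host of Mir26b. Of these genes 6 have a stretch of 20 nucleotides that recurs, beside 49.4% of all 2202 genes, and their counts are uncertain too. None of the 6 is in the arm class of the Mir26a copies, since their arms all recur or were not found in RefSeq.

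The replicates differed in all 3 genes, and not in the same direction. Mir26b was lower in replicate 1, at 0.4996 times replicate 2 (exact 95% binomial interval 0.488 to 0.511), a log2 ratio of replicate 1 over replicate 2 of -1.001. Mir26a-1 was 6.06-fold higher in replicate 1 (4.52 to 8.29), with a log2 ratio of 2.57. Mir26a-2 was 1.96-fold higher in replicate 1 (1.42 to 2.73), with a log2 ratio of 0.95. Log2 ratios are of CPM + 0.5.

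All 3 passed a two-sided exact binomial test of the library counts with Benjamini-Hochberg adjustment. The adjusted p was 1.54e-50 for Mir26a-1 and 4.34e-05 for Mir26a-2 in this exact test. For Mir26b the p was too small to be held as a number, and the log10 of its unadjusted exact p was -802.5. The same test called 52.1% of the 507 genes tested, 25.2% higher in replicate 1 and 26.8% higher in replicate 2, so that a call was usual at this depth. It compares these libraries and covers counting error only.

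Set against the spread of other genes, Mir26a-1 was the one that stood out. Of the 507 tested genes, 3 had a larger absolute log2 ratio than Mir26a-1, while 105 (20.7%) had a larger one than Mir26b and 112 (22.1%) a larger one than Mir26a-2. The coefficient of variation over the 2 libraries was 1.01 for Mir26a-1, 0.472 for Mir26b and 0.457 for Mir26a-2. edgeR's common dispersion gave 0.376 for the variation between the replicates beyond counting error.

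With that dispersion in a negative binomial exact test, none of the 3 genes passed, and 0.394% of tested genes did. The unadjusted exact p was 0.00225 for Mir26a-1, 0.204 for Mir26b and 0.252 for Mir26a-2, and the adjusted p was 0.286 for Mir26a-1 and 1 for the others. With the smaller median of DESeq2's dispersions, which gives a variation of 0.172, Mir26a-1 passed in the exact test (adjusted p = 6.68e-08) as did 9.07% of tested genes, 6.51% higher in replicate 1 and 2.56% higher in replicate 2. Mir26b and Mir26a-2 did not pass there (adjusted p = 0.0527 and 0.162 by the exact test). The dispersions come from the same 2 libraries and leave a single degree of freedom per gene. They take in the very difference between the libraries that is tested, so fewer calls than by counting error were largely built in.

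**Figure D5:**
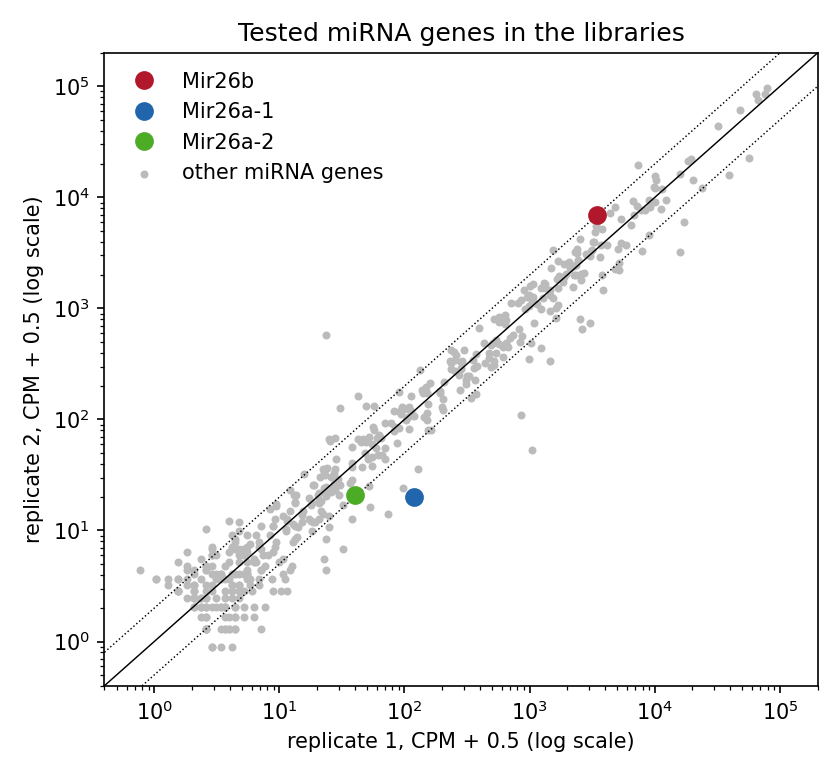
CPM + 0.5 of the 507 tested miRNA genes in replicate 1 (x axis) and replicate 2 (y axis), both on log axes, with lines at equality (solid) and at 2-fold (dotted). Mir26b and Mir26a-2 lie on opposite 2-fold lines, and Mir26a-1 lies well outside, at 119 CPM in replicate 1 and 19.6 CPM in replicate 2.

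Inside the family, the makeup of the Mir26a counts changed between the libraries. Mir26a-1 gave 74.9% of the counts of both copies in replicate 1 (exact 95% binomial interval 71.2 to 78.3) and 49.02% in replicate 2 (38.99 to 59.1). Its counts were 2.98 times those of Mir26a-2 in replicate 1 (2.47 to 3.61) and 0.962 times in replicate 2 (0.639 to 1.45). These intervals do not overlap, and they cover counting error only.

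Other features differed between the libraries too. Multimapping reads were 26.3% of all reads in replicate 1 and 37.5% in replicate 2, where both Mir26a copies had fewer assigned counts. Unmapped reads are in the same total and made up 41.3% in replicate 1 and 20.7% in replicate 2. Among mapped reads alone, the multimapping shares lie closer together. Other genes with both kinds of arm went in both directions. Mir138-1 had 5090 CPM in replicate 1 and 3431 CPM in replicate 2, and Mir128-1 had 4364 and 7285 CPM. All 3 listed oligodendrocyte genes were detected, with a summed level of 4060 CPM in replicate 1 and 1247 CPM in replicate 2. Mir219a-2 had 3014 CPM in replicate 1 and 743 CPM in replicate 2, Mir338 had 1029 and 485 CPM, and Mir219a-1 had 16.9 and 19.2 CPM. Both Mir219a genes have a stretch of 20 nucleotides that recurs, so their counts are uncertain too, and Mir338 has no such stretch. The endothelial Mir126a had 11308 CPM in replicate 1 and 7829 CPM in replicate 2. The neuron list had the higher sum in replicate 1, with Mir132 at 17266 CPM there against 5947 CPM in replicate 2. Its median log2 ratio of replicate 1 over replicate 2 was -0.56 over the 9 genes tested, beside 0.02 over all 507 tested genes. By the exact binomial test, 2 of the 9 were called higher in replicate 1 and 5 higher in replicate 2. Over all 507 the same test called 25.2% higher in replicate 1 and 26.8% higher in replicate 2. Of the 12 listed neuron genes, 10 have a stretch of 20 nucleotides that recurs, beside 49.4% of all 2202 genes, and their counts are uncertain too. Both erythroid genes were detected, with sums of 50.9 and 179 CPM in replicates 1 and 2. The part of these differences in the values of the miR-26 genes was not tested.

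The genes nearest to each member were found by distance in log2(CPM + 0.5) over the 2 libraries, which takes in both the level and the ratio of the libraries. Mir23a, Mir130a and Mir128-1 were nearest to Mir26b, at distances of 0.20, 0.31 and 0.34 log2 units. For Mir26a-1 the nearest were Mir214 at 0.38, Mir1247 at 0.85 and Mir669l at 0.85. Mir214 had 97.5 CPM in replicate 1 and 23.5 CPM in replicate 2. For Mir26a-2 the nearest were Mir3547 at 0.13, Mir92-2 at 0.39 and Mir103-2 at 0.42. No gene was closer to Mir26a-1 than 0.38, against 0.13 for Mir26a-2 and 0.20 for Mir26b.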

How the data were processed

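MicroRNA sequencing of hippocampus was analysed from 2 libraries. The deposited tables hold raw counts per miRNA gene. Their build is mm10 and their annotation GENCODE M21, as the text files beside them state. The software for alignment and counting was not given in the sources used here. Of 3 count columns, that for the gene's strand was used. A further 4 rows per table count reads that no gene received and were left out of totals, and they made up 72.5% of reads in replicate 1 and 64.7% in replicate 2. By counting error alone, 3 counts were worth 0.791 CPM in replicate 1 and 1.17 CPM in replicate 2.

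All 2202 identifiers matched the annotation. CPM were computed over counts on miRNA genes. Libraries were compared with a two-sided exact binomial test, adjusted by Benjamini-Hochberg over all genes that had 10 or more counts in sum, at a threshold of 0.05. edgeR's quasi-likelihood test could not be used with 1 library on each side. edgeR 4.0.16 and DESeq2 1.42.0 in R 4.3.3 gave dispersions and scaling, and edgeR's exact test the negative binomial p-values. Hairpins and arms were searched on both strands, against annotated miRNA genes only, since no genome was used here. RNAfold 2.7.2 gave folding energies. The remaining work was done with scipy 1.17.1, Biopython 1.88, pandas 2.3.3, numpy 2.4.6 and matplotlib 3.10.9 in Python 3.11.15.

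The text names the 3 members, the 3 nearest genes of each, genes with the same seeds, and the highest and lowest of 2 lists. Mir107, Mir138-1 and Mir218-2 were named after their values were seen, and Mir122, Mir124a, Mir126a, Mir132, Mir206, Mir219a and Mir338 as tissue markers. The members and lists were chosen with earlier results of these data known. Alternatives were the column that ignores strand, other denominators, scalings, minimums, pseudocounts, tests and stretch lengths, and leaving out each replicate.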

Additional observations from a re-analysis of the deposited data

How the results depend on the processing

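Of 59 alternative values, 45 were counted as the same as the main value, and none reversed. A log2 ratio had to keep its direction and side of the threshold. A level, share, ratio of counts or rank had to move by less than the spread between replicates. A number of called genes had to stay close to the main number, and the number of repeated members had to be equal. Part of these 45 were fixed in advance. With 2 libraries, a level or ratio without a replicate always lies within the spread. The pseudocount does not enter the exact test. Ignoring strand could not change the ratio of Mir26b to the copies, which had no opposite-strand counts. Longest shared stretches of 25 nucleotides for the copies and 12 for Mir26b settled the other stretch lengths. With all reads of a library as the denominator, mean CPM was 1701 for Mir26b, 19.8 for Mir26a-1 and 9.07 for Mir26a-2, and the family held 0.173%. The value of Mir26a-1 was among the 45 only because its SD was 70.03 CPM. Without the 10 highest genes in the denominator, mean CPM was 10838 for Mir26b, 139 for Mir26a-1 and 61.4 for Mir26a-2, and the family held 1.10%. These follow from the smaller or larger denominators. With edgeR's common dispersion the log2 ratios of replicate 1 over replicate 2 (-1.001 for Mir26b, 2.57 for Mir26a-1 and 0.95 for Mir26a-2) no longer passed, and 2 genes were called in place of 264. With DESeq2's median dispersion Mir26b (-1.001) and Mir26a-2 (0.95) no longer passed, and 46 genes were called, 33 higher in replicate 1 and 13 in replicate 2. Both tests add variation between replicates to counting error. That variation was estimated from the same difference between the libraries that is tested, so fewer calls were largely built in. Other settings called 243 to 268 genes. Leaving out a replicate gave 21.9 and 174 for the ratio of Mir26b to the summed Mir26a copies, 3466 and 6937 CPM and ranks 50 and 31 for Mir26b, 19.6 and 119 CPM for Mir26a-1 and 20.4 and 39.8 CPM for Mir26a-2. No paired analysis was possible because the series holds 1 group. Precision is limited by 50 and 52 counts for the Mir26a copies in replicate 2.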

Other observations

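Folding each hairpin with RNAfold gave minimum free energies of -43.5 kcal/mol for Mir26b, -49.4 kcal/mol for Mir26a-1 and -44.5 kcal/mol for Mir26a-2, against a median of -33.2 kcal/mol over the 2202 annotated miRNA genes. Per base, 88.96% of all genes fold more weakly than Mir26b, 93.1% than Mir26a-1 and 91.2% than Mir26a-2.

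Of the 4 annotated transcripts of Ctdsp2, 2 begin at the last base of the Mir26a-2 hairpin, so that 1 nucleotide of it is exonic in them. No annotated exon of Ctdsp1 or Ctdspl touches the hairpin inside it. On the strand opposite to each miR-26 gene, both libraries had 0 counts.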
